A study of Homo sapiens with 14 samples.

Results

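The 65 rows described here are the genes of cytochrome P450 families 1 to 4, of the UDP-glucuronosyltransferase (UGT) families 1 and 2 and of the cytosolic sulfotransferase (SULT) families 1, 2 and 4, out of 21574 rows in the deposited table of RPKM (read counts scaled by transcript length and by library size). They were chosen by gene symbol. Of the 65 rows, 35 are P450 genes, 11 are UGT rows, 10 are sulfotransferase genes, 8 are pseudogenes and 1 is an antisense RNA, CYP1B1-AS1. The authors joined 3 of the UGT rows from several genes, so that the whole UGT1A locus, with 9 symbols, has a single value. SULT1A3 and SULT1A4 share a row that opens with other symbols and were therefore no members.

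The cells are labelled HepG2, an established human hepatoma line, and were transfected with scrambled siRNA (control) or with siADAR1 (KD), an siRNA against ADAR1, the enzyme that converts adenosine to inosine in double-stranded RNA. The control cells thus carried an siRNA too, and the labels call the transfection stable. PARS-seq, which cuts folded poly-A RNA with S1 nuclease at unpaired or with RNase V1 at paired bases, gave 8 libraries, and each of the 4 PARS-seq columns of the table is the authors' mean of the V1 and the S1 library of a replicate. Ribo-seq, the sequencing of ribosome-protected fragments, had 2 libraries of each condition and RNA-seq only 1.

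P450 enzymes are haem proteins that insert oxygen into drugs, fatty acids, steroids and vitamins, taking electrons from NADPH through P450 oxidoreductase. UGT enzymes then link glucuronic acid, and sulfotransferases link sulfate, to the oxidised product, which makes it easier to excrete. The liver is known for high levels of many enzymes of these families, while hepatoma lines hold less of many of them. CYP4 enzymes mostly hydroxylate the end of fatty acid chains, CYP2R1 makes 25-hydroxyvitamin D, and SULT1A enzymes act on small phenols.

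The sequences below are printed because they define the P450 members and show how alike the CYP4F genes are. In each line 30 bases of coding DNA (GRCh37, the build of the alignments, 5′ to 3′ on the coding strand) encode the haem-binding signature, in which a phenylalanine opens the stretch and an invariant cysteine, in capitals, holds the iron. The signature was found in 35 of the 35 P450 genes with a coding transcript in GENCODE.
CYP4F11 (chr19:16024707-16025131, minus strand, intron after base 17): ttctcggcagggcccagaaacTGCatcggg
CYP4F3 (chr19:15769603-15770042, plus strand, intron after base 17): ttctcagcagggcccaggaacTGCatcggg
CYP4F2 (chr19:15989734-15990172, minus strand, intron after base 17): ttctcggcagggcccaggaacTGCatcggg
CYP4F12 (chr19:15807306-15807730, plus strand, intron after base 17): ttctccgcagggcccaggaacTGCatcggg
CYP2R1 (chr11:14899824-14900669, minus strand, intron after base 10): ttttccctaggaagaagacatTGTcttgga
CYP2S1 (chr19:41711995-41712204, plus strand, intron after base 10): ttctccttagggaagcgtgtcTGCcttgga
CYP2U1 (chr4:108870664-108871420, plus strand, intron after base 10): tttgggatagggaagcgggtgTGTatggga
CYP1B1 (chr2:38298081-38298110, minus strand, within an exon): ttttcagtgggcaaaaggcggTGCattggc
CYP4F11 and CYP4F3 differ at 2 of these 30 bases and CYP4F11 and CYP4F2 at 1, whereas CYP4F11 and CYP2S1 differ at 13. The next lines open with the loop of the sulfotransferases that holds the sulfate donor PAPS, in capitals, and the 30 bases shown differ at 2 positions between the neighbouring genes SULT1A1 and SULT1A2.
SULT1A1 (chr16:28619911-28620044, minus strand, intron after base 16): ACCTACCCCAAGTCCGGCACTacctgggta
SULT1A2 (chr16:28606983-28607119, minus strand, intron after base 16): ACCTACCCCAAGTCCGGCACCacctgggtg
The authors kept uniquely aligned reads, so that reads from stretches shared by such copies were lost or could be placed on the wrong copy. Of the 50-base windows of the longest coding transcript, 20.5% in SULT1A2 and 17.7% in SULT1A1 were also found in the other gene. Only members were searched, so that windows shared with SULT1A3 and SULT1A4 were not counted. The share found in any other member was 0.899% in CYP4F11, 9.13% in CYP4F3 and 17.9% in CYP4F2, and 0% in CYP1B1, CYP2R1, CYP2S1 and CYP2U1. Values of SULT1A1, SULT1A2, CYP4F2 and CYP4F3 are therefore uncertain.

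ADAR, the targeted gene, was at 40.7 and 46.8 RPKM in the PARS-seq controls and at 15.1 and 15.1 in KD, and at 54.8 and 15.4 in RNA-seq. In Ribo-seq it was at 43.6 and 55.5 RPKM in control, and at 8.73 in KD replicate 1 but at 44 in KD replicate 2, so that the library labelled KD replicate 2 was near the control level. The depth recovered from the table, rounded, was 40730000 (control) and 30210000 (KD) in RNA-seq but 1000000 to 3320000 reads in Ribo-seq, and that of the PARS-seq averages cannot be recovered from their values. The defining markers of hepatocytes were nearly absent from the cells labelled HepG2. The 10 markers, which include albumin (ALB), alpha-fetoprotein (AFP) and apolipoproteins A1 and B, summed to 0.128 to 1.74 RPKM per column, ALB did not exceed 0.0442, and the liver regulator HNF4A did not exceed 0.803. The 4 fibroblast markers summed to 30.4 to 117 RPKM, carried by COL1A1 and COL3A1, and 0 of the 2 tested in PARS-seq were called, although both had KD values below both control values, with log2 fold changes of −0.40 for COL1A1 and −0.51 for COL3A1. In RNA-seq COL3A1 was at 13.8 RPKM in control and 6.14 RPKM in KD, and COL1A1 at 54.7 and 40.4. Endothelial markers stayed at or below 0.62 RPKM in sum, and of the leukocyte markers only CD68 passed 1 RPKM, with a log2 fold change of −1.09 in PARS-seq (limma adjusted p = 0.0039), while PTPRC and CD3E were at or near 0. The part of these levels in the results below was not tested.

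Most of the 65 genes were barely expressed. At least 1 RPKM in every control column was reached by 9 members (13.8%) in PARS-seq, 5 (7.69%) in RNA-seq and 3 (4.62%) in Ribo-seq, against 50.3, 50.7 and 45% of all rows of the table. Only SULT1A1 and CYP2S1 reached it in the control columns of all assays. A read was found somewhere in PARS-seq for 50 members, in RNA-seq for 34 and in Ribo-seq for 22, and 7 members (10.8%) were listed at 0 in all 10 columns, a share near the 9.11% of all rows. These are UGT2B4, UGT2B10, UGT2B28, the joined row of UGT2B15 and UGT2B17, SULT1B1, SULT1C3 and SULT2A1, the sulfotransferase of bile acids and dehydroepiandrosterone. At the depth of RNA-seq, a single read in a transcript of 2000 bases is worth 0.0123 RPKM in control and 0.0166 in KD, so that values near these rest on single reads.

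The enzymes that carry most drug oxidation and glucuronidation in liver were near 0. CYP3A4, the main drug oxidase, did not exceed 0.0243 RPKM in any column and was at 0 in RNA-seq and Ribo-seq, and the highest value of the CYP3 family was 0.483 RPKM, for CYP3A7 in Ribo-seq control replicate 1, where it rests on 1 read. CYP2E1, the ethanol-oxidising P450, stayed at or below 0.0137 RPKM and CYP2D6 at or below 0.499. In the UGT2 family no value was above 0.184 RPKM, that of UGT2B15 in a single Ribo-seq library, and UGT2B7 did not exceed 0.0163. The joined UGT1A row, which includes the bilirubin-conjugating enzyme UGT1A1, was at 0.219 and 0.148 RPKM in the PARS-seq controls and at 0.0815 and 0.0679 in KD. The pseudogenes did not exceed 0.207 RPKM.

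**Figure D1:**
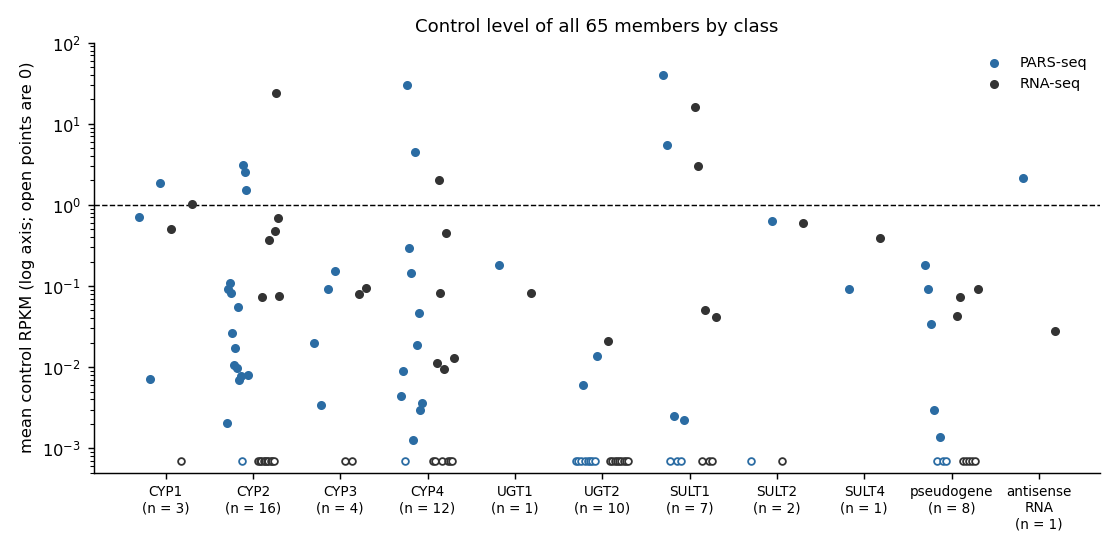
Mean RPKM in control columns (log axis) of each of the 65 members, by gene family, in PARS-seq (blue, mean of 2 columns) and RNA-seq (black, 1 library), with open points for a level of 0 and the dashed line at 1 RPKM. Few points lie above the line, and none of the CYP3, UGT1 and UGT2 rows does.

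The members with a mean of at least 1 RPKM over the 4 PARS-seq columns were CYP1B1, CYP1B1-AS1, CYP2R1, CYP2S1, CYP2U1, CYP4F3, CYP4F11, SULT1A1 and SULT1A2, and these 9 could be tested in PARS-seq. Here 6 of them were called lower and 1 higher in KD (limma on log2(RPKM + 1), Benjamini-Hochberg adjusted p under 0.05 over 11153 genes), where 7.43% of all genes tested were called lower and 8.06% higher. CYP4F3 and CYP2S1, both called lower, had KD means under 1 RPKM and passed the filter through their control levels only. The count of lower calls therefore cannot be read as support. The same holds for the count without overlap and the medians that follow, which include both genes. In 6 of the 9 both KD values lay below both control values, against 27.1% of all genes tested, and in 1 both lay above, against 33.3%. The median log2 ratio of the 9 was −0.94 in replicate 1 and −1.0 in replicate 2, and that of all genes tested was 0.04 in both replicates. All log2 fold changes below are on the log2(RPKM + 1) scale, which understates the change of low genes, whereas ratios and values given as times lower or higher are of RPKM itself. With bulk RNA, fewer cells that express a gene cannot be told apart from less RNA per cell.

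CYP4F11 and CYP4F3 differed most between the groups. CYP4F11 had the larger log2 fold change with 1 RPKM added, while with 0.1 RPKM added CYP4F3 was at −4.26 and CYP4F11 at −3.65. CYP4F11 spans chr19:16023177-16045677 on the minus strand of GRCh37, the build of all gene positions here, and its enzyme hydroxylates the side chains of vitamin K and of long fatty acids. It was at 25.2 and 34.1 RPKM in the PARS-seq controls and at 1.38 and 3.62 RPKM in KD, so that the groups lie far apart. The KD values differed from each other, and same-numbered columns gave KD to control ratios of 0.0546 (replicate 1) and 0.106 (replicate 2). The mean was 11.9 times lower in KD, with a log2 fold change of −3.19 ± 0.30 (SE, n = 2 against 2) and a limma adjusted p of 8.84e-04. In RNA-seq it was at 2.04 RPKM in control and 0.127 RPKM in KD, from 282 and 13 reads, and passed the filter there through its control level only. The ratio of these single libraries was 0.0622, with an exact 95% interval of 0.0327 to 0.108 that covers counting error only. In Ribo-seq it was at 1.48 and 0.443 RPKM in control and at 0.21 and 0.245 in KD, which are 5, 5, 1 and 2 reads. Both KD values were thus below both control values, as in PARS-seq, but rest on so few reads that the interval of each ratio includes 1, from 0.003 to 1.27 in replicate 1 and from 0.0526 to 3.38 in replicate 2.

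CYP4F3 (chr19:15751707-15773635, plus strand), which inactivates the inflammatory lipid leukotriene B4, was also called lower in PARS-seq. Its PARS-seq values were 4.13 and 4.95 RPKM in control and 0.0944 and 0.197 RPKM in KD, a mean 31.1 times lower. It passed the filter through its control level only. The log2 fold change was −2.27 ± 0.13 (SE, n = 2 against 2, limma adjusted p = 1.36e-04). In RNA-seq it was at 0.447 RPKM in control and 0.0423 RPKM in KD, below the level required for the RNA-seq comparison. Its Ribo-seq values overlapped, at 0.641 and 0.0961 RPKM in control and 0.227 and 0 RPKM in KD. CYP4F12 and CYP4F2 were too low to be tested, and both KD values lay below both control values in PARS-seq. CYP4F12 was at 0.26 and 0.327 RPKM in the PARS-seq controls and at 0.00623 and 0.0467 in KD, and CYP4F2, a vitamin K and vitamin E hydroxylase, was at 0.111 and 0.181 in control and at 0.0188 and 0.0149 in KD. Part of the CYP4F2 reads could come from CYP4F3, given the sequence they share.

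The CYP4F genes lie side by side on chromosome 19 (GRCh37, chr19:15619336-16045677, 426 kb with 7 members in the table). Within 500 kb on either side of and inside this cluster, the table has 29 other rows with a position in GENCODE, of which 11 could be tested in PARS-seq. None of the 11 was called in either direction, and their median log2 fold change was 0.14. Values of neighbours such as TPM4, with 154 and 151 RPKM in control and 139 and 122 in KD, and RAB8A, with 177 and 157 against 165 and 170, differed by little between the groups. These neighbours were picked after their values were seen.

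**Figure D2:**
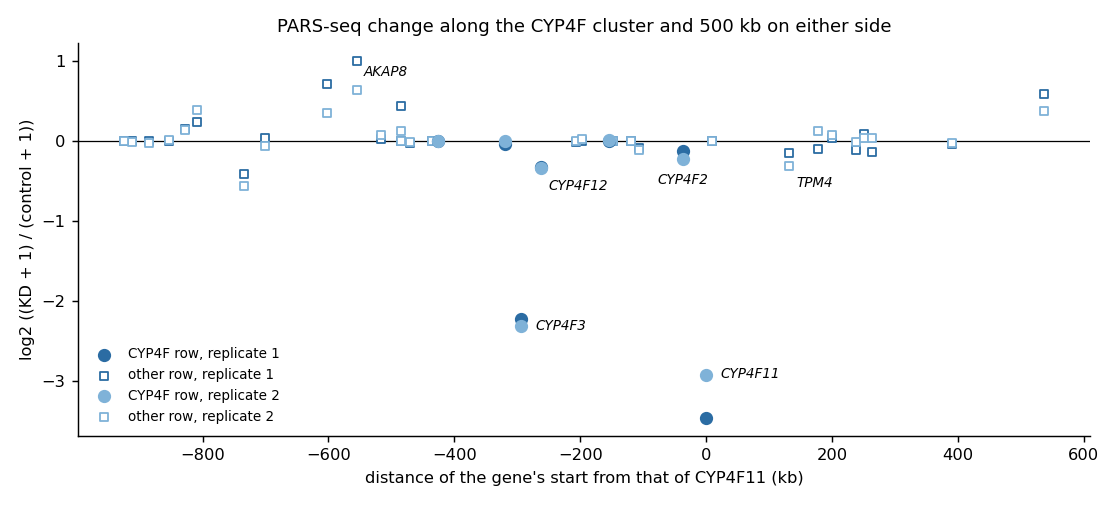
Log2 ratio of KD over control PARS-seq RPKM, with 1 added to each, against the distance in kb of each gene's start from that of CYP4F11, for CYP4F rows (filled circles) and other rows (open squares) in replicates 1 (dark) and 2 (light). CYP4F11 and CYP4F3 lie below −2 in both replicates, while the other rows lie within about 1 of 0.

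The RefSeq promoters of CYP4F11 and CYP4F3 (GRCh38.p14, 250 bases before to 50 after the start) were compared after their values were seen. These genes are also alike in the coding stretch above, and whether shared promoter bases bear on their levels was not tested. Capitals in the next lines mark bases within exact runs of at least 12 bases that both promoters hold. In the CYP4F3 line some of these runs overlap, so that its longer stretches of capitals do not occur whole in CYP4F11.
CYP4F11, downstream start (chr19:15934480-15934779, minus strand): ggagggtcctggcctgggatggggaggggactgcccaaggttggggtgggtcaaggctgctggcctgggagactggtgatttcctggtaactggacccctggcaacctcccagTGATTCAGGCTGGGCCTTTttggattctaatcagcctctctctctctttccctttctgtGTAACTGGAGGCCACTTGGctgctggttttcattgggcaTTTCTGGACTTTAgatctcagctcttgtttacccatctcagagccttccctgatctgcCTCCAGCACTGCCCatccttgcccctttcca
CYP4F3 (chr19:15641062-15641361, plus strand): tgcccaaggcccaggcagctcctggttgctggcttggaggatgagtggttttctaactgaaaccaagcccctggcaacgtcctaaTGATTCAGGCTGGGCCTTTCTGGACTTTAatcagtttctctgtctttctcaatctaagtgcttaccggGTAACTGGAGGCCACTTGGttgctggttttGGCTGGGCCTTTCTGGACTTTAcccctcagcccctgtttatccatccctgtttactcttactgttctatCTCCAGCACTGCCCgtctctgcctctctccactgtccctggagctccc
The CYP4F11 promoter holds 4 such runs, the longest of 19 bases, and 65 of its 300 bases are in capitals. Of 35114 RefSeq promoters other than those of CYP4F11, that of CYP4F3 was the only one that shared as many bases in such runs. CYP4F12 had no promoter among those compared. The second start of CYP4F11 in RefSeq lies upstream, and the capitals in its promoter mark a match to TGACNNNGC, the core that the regulator NFE2L2 (NRF2) is known to bind, on the reverse strand. The motif was not found in the promoter of the downstream start or in that of CYP4F3.
CYP4F11, upstream start (chr19:15934818-15935117, minus strand): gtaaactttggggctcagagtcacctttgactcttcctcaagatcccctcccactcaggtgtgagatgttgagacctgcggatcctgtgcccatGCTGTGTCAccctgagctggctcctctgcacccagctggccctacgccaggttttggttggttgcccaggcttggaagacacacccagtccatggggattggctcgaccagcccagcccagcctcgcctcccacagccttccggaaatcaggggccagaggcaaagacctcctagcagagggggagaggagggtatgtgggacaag
Either strand of TGACNNNGC is found in 13.3% of 35116 RefSeq promoters of this length. Among them, 55 carry a symbol of the members, with symbols of joined rows counted separately, and 10 of the 55 hold the motif. CYP1B1, CYP4F12, SULT1A1 and SULT1A2 had no promoter in this set. The core of the aryl hydrocarbon receptor element, GCGTG, is found in 36.5% of all promoters and in 17 of these 55, that of CYP1A1 among them, but not in the promoters of CYP4F11 and CYP4F3. These are matches of letters, and binding was not measured in these cells.

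**Figure D3:**
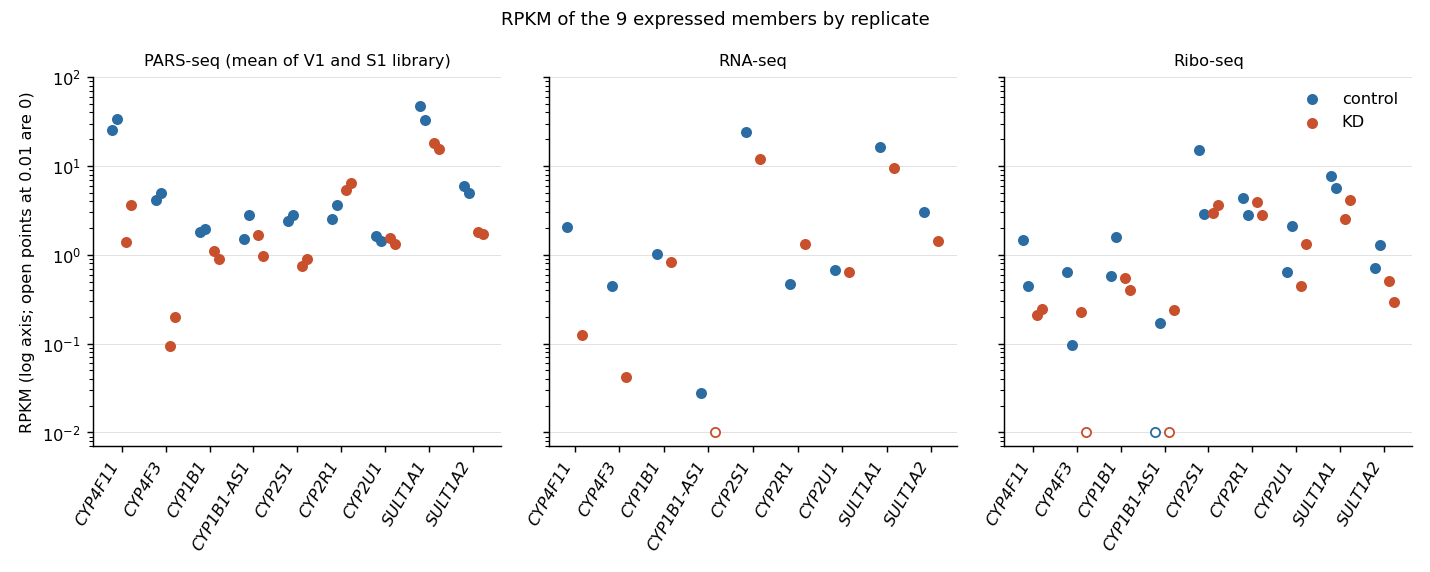
RPKM (log axis) of the 9 members with a PARS-seq mean of at least 1 RPKM in each column of PARS-seq (left, 2 control and 2 KD columns), RNA-seq (middle, 1 and 1) and Ribo-seq (right, 2 and 2), control in blue and KD in red, with open points for 0. In PARS-seq the control and KD points of 7 members do not overlap, while those of CYP2U1 and CYP1B1-AS1 do.

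The sulfotransferases SULT1A1 and SULT1A2 were called lower in KD in PARS-seq, and neither was called in Ribo-seq. SULT1A1 (chr16:28616517-28625600, minus strand), the main phenol sulfotransferase of adult liver, had the highest mean PARS-seq control level of all members, at 47.5 and 32.6 RPKM in control and 18.1 and 15.5 RPKM in KD. The log2 fold change was −1.18 ± 0.21 (SE, n = 2 against 2, limma adjusted p = 0.0102), and the call was lost without the filter on low values (limma adjusted p = 0.0815). The RNA-seq values were 16.1 RPKM (control) and 9.42 RPKM (KD). In Ribo-seq SULT1A1 was at 7.64 and 5.65 RPKM in control and at 2.55 and 4.09 in KD, and it was the only member tested whose groups did not overlap in this assay. SULT1A2 (chr16:28603264-28608371, minus strand) was at 5.91 and 4.96 RPKM in the PARS-seq controls and at 1.82 and 1.70 RPKM in KD, a log2 fold change of −1.22 ± 0.14 (SE, n = 2 against 2, limma adjusted p = 0.00241). In RNA-seq it was at 3.06 and 1.44 RPKM, from 174 and 61 reads, with 0.473 as the ratio of KD over control (exact 95% interval 0.347 to 0.636). Its Ribo-seq values were 0.718 and 1.29 RPKM in control and 0.509 and 0.297 RPKM in KD, from 1, 6, 1 and 1 reads and too low for the test. The exact 95% intervals of the Ribo-seq ratios, 0.00903 to 55.6 in replicate 1 and 0.00501 to 1.90 in replicate 2, include 1.

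Members of the CYP2 family moved in different directions. CYP2R1 (chr11:14898986-14913777, minus strand), the vitamin D 25-hydroxylase, was the only member called higher, with 2.54 and 3.65 RPKM in the PARS-seq controls and 5.30 and 6.49 RPKM in KD. Its log2 fold change was 0.76 ± 0.18 (SE, n = 2 against 2, limma adjusted p = 0.0281). It had 31 reads (0.470 RPKM) in the RNA-seq control and 65 (1.33 RPKM) in KD, which is 2.83 times the control level (exact 95% interval 1.82 to 4.49). In Ribo-seq its values were 4.35 and 2.79 RPKM in control and 3.96 and 2.83 in KD, with a log2 fold change of −0.05 ± 0.43 (SE, n = 2 against 2) and a limma adjusted p of 1.00. The higher level in KD was thus seen in RNA-seq and PARS-seq, while the 7 to 15 reads per Ribo-seq library leave ratios of 0.302 to 2.88 and of 0.421 to 2.36 within the exact 95% intervals of the replicates. The call in PARS-seq was lost without the filter (limma adjusted p = 0.139), without control replicate 1 (limma adjusted p = 0.104) or without KD replicate 2 (limma adjusted p = 0.0622).

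CYP2S1 (chr19:41699115-41713444, plus strand), a P450 of epithelia that can act on retinoids and carcinogens, had the highest RNA-seq level of all members, with 24 RPKM in control and 11.9 RPKM in KD. These levels rest on 2559 and 944 reads, with a ratio of 0.497 (exact 95% interval 0.461 to 0.536). In PARS-seq CYP2S1 was at 2.38 and 2.77 RPKM in control and at 0.757 and 0.886 in KD, a log2 fold change of −0.97 ± 0.13 (SE, n = 2 against 2, limma adjusted p = 0.00348). In Ribo-seq the control and KD libraries of replicate 1 were at 14.9 and 2.99 RPKM, and those of replicate 2 at 2.87 and 3.65 RPKM, so that the same-numbered libraries moved in opposite directions. CYP2U1 (chr4:108852705-108874617, plus strand), a fatty acid hydroxylase, was at 1.64 and 1.42 RPKM in the PARS-seq controls and at 1.57 and 1.32 in KD. Its log2 fold change was −0.05 ± 0.13 (SE, n = 2 against 2, limma adjusted p = 0.82), and its RNA-seq values of 0.682 and 0.634 RPKM gave a ratio of 0.929 (exact 95% interval 0.704 to 1.22). The Ribo-seq values of CYP2U1 overlapped, at 0.634 and 2.09 RPKM in control and 0.449 and 1.31 RPKM in KD.

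In family 1, CYP1B1 (chr2:38294116-38337044, minus strand), which oxidises oestrogens and aromatic hydrocarbons, was at 1.80 and 1.96 RPKM in the PARS-seq controls and at 1.10 and 0.896 RPKM in KD. The log2 fold change was −0.53 ± 0.13 (SE, n = 2 against 2, limma adjusted p = 0.029), and the call was lost without the filter (limma adjusted p = 0.0859) or without KD replicate 2 (limma adjusted p = 0.171). The RNA-seq libraries held 215 control and 129 KD reads (1.02 and 0.829 RPKM), and the depth-scaled ratio was 0.809, whose exact 95% interval of 0.645 to 1.01 includes 1. In Ribo-seq CYP1B1 was at 0.585 and 1.58 RPKM in control and at 0.553 and 0.403 RPKM in KD, too low for the test. CYP1B1-AS1, transcribed from the opposite strand, was at 1.49 and 2.81 RPKM in the PARS-seq controls and at 1.65 and 0.982 in KD, so that the groups overlap (limma adjusted p = 0.218). It had 2 reads (0.028 RPKM) in RNA-seq control and 0 in KD, and in Ribo-seq 0 and 0.172 RPKM in control against 0 and 0.237 RPKM in KD. In GENCODE the exons of the pair share 677 bases, and the counting used no strand, so that reads from these bases cannot be told apart. CYP1A1, the P450 best known for its induction by dioxin, stayed below the filter, with 0.679 and 0.728 RPKM in the PARS-seq controls and 0.164 and 0.205 in KD. The RNA-seq control held 54 reads of it and the KD library 7, for a depth-scaled ratio of 0.175 (exact 95% interval 0.0671 to 0.385). These intervals cover counting error between single libraries only, and reads without molecular identifiers are not independent molecules.

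**Figure D4:**
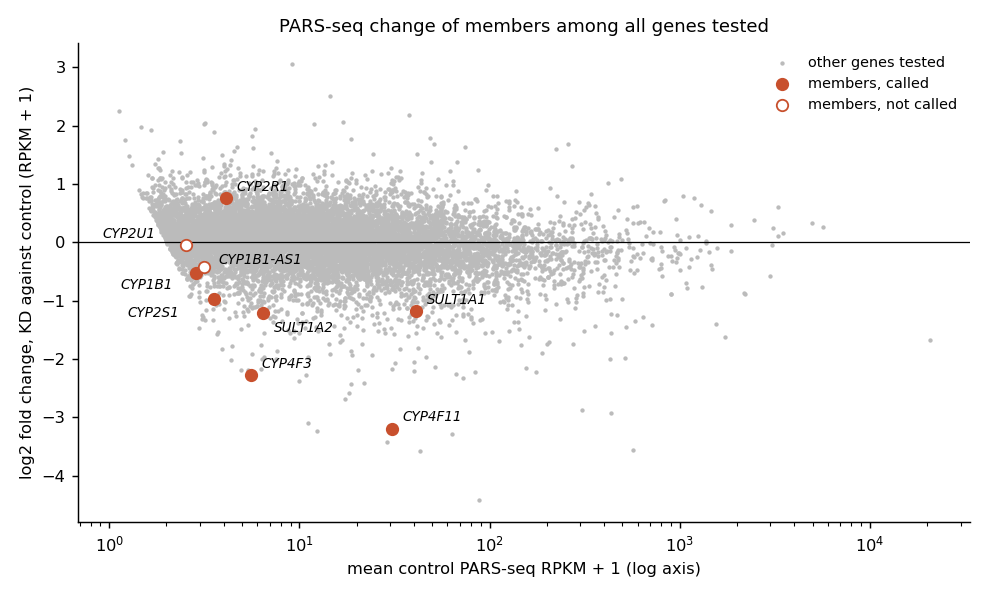
Log2 fold change in PARS-seq (KD against control, with 1 RPKM added) against the mean control RPKM plus 1 (log axis) for the 11153 genes tested, members in red, filled where called at a limma adjusted p under 0.05. CYP4F11 and CYP4F3 lie near the lower edge of all genes, and CYP2R1 is the only member called above 0.

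Most of the other members were below the filter and were not tested. Of the 32 members above 0 in all 4 PARS-seq columns, both KD values were below both control values in 13, against 26.8% of the 16145 such rows in the table, and above in 5, against 31.2%. Besides the genes above, the lower group holds CYP2B7P1, CYP3A4, CYP4V2 and the UGT1A row, and the higher group CYP2D6, CYP2W1, CYP4F24P and SULT4A1. SULT4A1, a sulfotransferase of brain with no settled substrate, was at 0.0678 and 0.115 RPKM in the PARS-seq controls and at 0.287 and 0.484 in KD. It had 39 reads in the RNA-seq control and 50 in KD, for a depth-scaled ratio of 1.73 (exact 95% interval 1.11 to 2.70). SULT2B1, which sulfates cholesterol, was at 0.886 and 0.390 RPKM in the PARS-seq controls and at 0.467 and 0.339 in KD, with overlapping groups.

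The RNA-seq comparison had 1 library per condition and no replicate check. With a mean of at least 1 RPKM over both libraries, 4 members could be compared, CYP2S1, CYP4F11, SULT1A1 and SULT1A2. All 4 were more than 1.5-fold lower in KD on the (RPKM + 1) scale, against 4.66% of 10946 genes, and none was higher, against 4.47%. CYP4F11 passed this filter through its control level only, so the count cannot be read as support. In Ribo-seq the members tested were CYP2R1, CYP2S1, CYP2U1 and SULT1A1, and limma called none of them at an adjusted p under 0.05. CYP2U1, with a KD mean of 0.881 RPKM, passed this filter through its control level only. Of all 10882 genes tested, 0% were called higher and 0% lower. At an unadjusted p under 0.05, 43 genes and 0 members passed. Both KD values lay below both control values for 1 of the 4 members, against 7.12% of all genes tested, and above for 0, against 10.7%. The median log2 ratio of the 4 was −0.73 in replicate 1 and −0.19 in replicate 2, where all genes had medians of −0.02 and 0.16. Without KD replicate 2, in which ADAR was hardly lower, limma called no member either, and the log2 fold changes were −1.1 for SULT1A1, −0.98 for CYP2S1, −0.63 for CYP2U1 and 0.14 for CYP2R1.

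**Figure D5:**
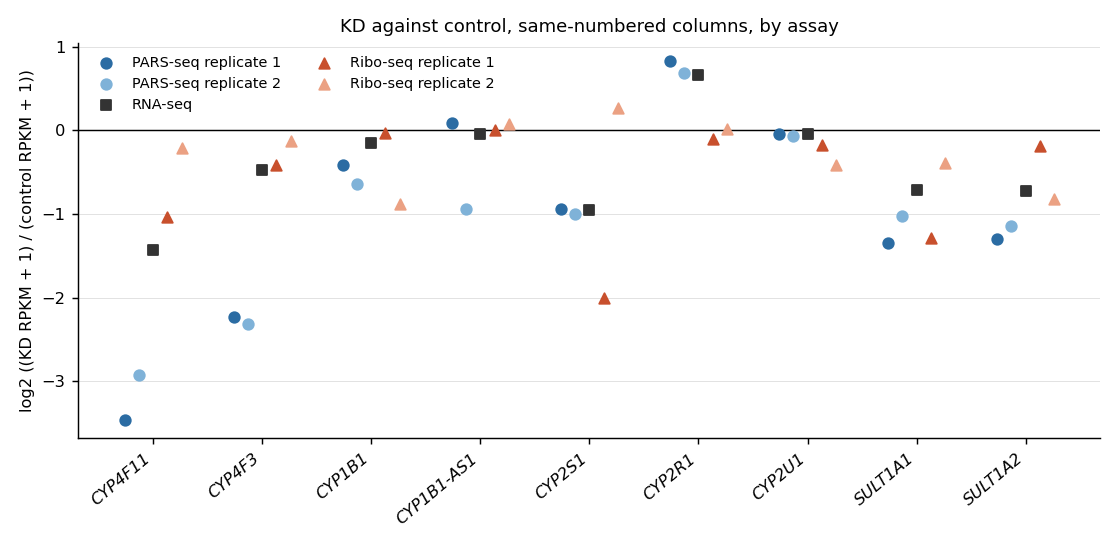
Log2 ratio of KD over control RPKM, with 1 added to each, of the 9 members in PARS-seq replicates 1 and 2 (circles), RNA-seq (squares) and Ribo-seq replicates 1 and 2 (triangles). The PARS-seq and RNA-seq points lie on the same side of 0 for each member apart from CYP1B1-AS1, whereas those of Ribo-seq scatter.

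The level of a member depended on the assay. In the controls CYP4F11 was 14.5 times higher in PARS-seq than in RNA-seq RPKM and CYP4F3 10.2 times, above 98.0 and 96.7% of 12934 genes ranked by this ratio, whose median was 0.963. CYP2S1 was 9.31 times lower in PARS-seq than in RNA-seq, with only 2.31% of genes below it. CYP2R1 was 6.58 times higher in PARS-seq. The values of the assays were scaled separately, so that these ratios place a gene among the others and do not give amounts of RNA. The Ribo-seq level over that of RNA-seq, a measure of ribosome density, was 9.24 and 5.93 for CYP2R1 in the controls and 2.98 and 2.13 in KD. The 95th percentiles over the 10631 genes with at least 1 RPKM in both RNA-seq libraries were 3.79 and 2.15 in control. They were 4.10 and 3.08 in KD, so that CYP2R1 lay above them in control and below them in KD. CYP2R1, CYP2U1 and CYP4F3 were below 1 RPKM in RNA-seq control and are not in this set. They are thus not ranked among genes of their own level. The control ratios of CYP2R1 rest on 31 RNA-seq reads. CYP2U1 in control replicate 2, at 3.06, and CYP4F3 in KD replicate 1, at 5.38, also lay above these percentiles. The latter divides 0.227 RPKM in Ribo-seq by 0.0423 RPKM in RNA-seq, and CYP4F3 was at 0 in KD replicate 2. A single read in 2000 bases is worth 0.356 RPKM in the Ribo-seq library of KD replicate 1. For SULT1A1 the control libraries had 0.473 and 0.350, and those of KD 0.271 and 0.434. The medians of the 10631 genes were 0.676 and 0.589 in control. With a single RNA-seq library per condition, this measure has no test.

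The other genes of the pathway were taken from fixed lists and counted in PARS-seq with the same test, beside which stand the 8.06% of all genes tested called higher and the 7.43% called lower. The counts of 1 of 13 higher among the genes of electron and haem supply and of 1 of 15 lower among the regulators are near these shares. Of 13 genes for electron supply and haem synthesis, 1 was called higher, PGRMC2, a haem-binding membrane protein, with a log2 fold change of 1.19 (limma adjusted p = 0.0137), and 0 were called lower. POR, the oxidoreductase that feeds all P450 enzymes of the endoplasmic reticulum and named here after its values were seen, was at 90.9 and 106 RPKM in control and 59.3 and 71.8 in KD, without passing the test (limma adjusted p = 0.0722). Of 8 genes that make or carry the cofactors of conjugation, 2 were called lower and 1 higher. UGDH, which makes UDP-glucuronic acid, fell by 1.56 on the log2 scale (limma adjusted p = 0.0027), PAPSS2, which makes PAPS, fell by 0.70 (limma adjusted p = 0.023), and UGP2, which makes UDP-glucose, rose by 1.07 (limma adjusted p = 0.0149). Of 15 regulators tested, FOXA1, a transcription factor of liver and other epithelia, was the only call, lower by a log2 fold change of −0.70 (limma adjusted p = 0.0408), and NFE2L2 and AHR, named after their values were seen, did not pass the test, with log2 fold changes of −0.33 and −0.10.

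Of 11 other oxidising and reducing enzymes tested, 5 were called lower and 0 higher. The log2 fold change was −2.43 for CBR3, a carbonyl reductase, −1.62 for EPHX1, which opens the epoxides that P450 enzymes form, and −1.43 for NQO1, a quinone reductase (limma adjusted p = 0.00202, 0.00889 and 0.00615). Of 17 other conjugating enzymes tested, 5 were called lower and 0 higher, among them the glutathione transferases MGST1, with a log2 fold change of −2.0, GSTM3, with −1.15, and GSTO1, with −0.73 (limma adjusted p = 0.00121, 0.00986 and 0.038). Of 8 drug transporters tested, ABCG2 and ABCC2 were called lower, with log2 fold changes of −1.87 and −1.27, and ABCB1, which encodes P-glycoprotein, was called higher, with 0.91 (limma adjusted p = 9.04e-04, 0.00359 and 0.00923). Of the 4 genes tested from P450 families outside 1 to 4, CYP39A1, an oxysterol hydroxylase, and CYP27C1, a retinol desaturase, were called lower, with log2 fold changes of −1.64 and −1.02 (limma adjusted p = 0.0014 and 0.00341), the latter with KD values of 1.11 and 0.882 RPKM, so that it passed the filter through its control level only. The medians of these lists lay between −0.70 and −0.06, beside 0.04 over all genes tested.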

How the data were processed

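All 14 samples were labelled with a condition. Per the labels and the methods of the study, the authors aligned reads with Bowtie2 to hg19, kept unique alignments, used coverageBed to count them over RefSeq transcripts without a strand option, and deposited the results as RPKM. Each PARS-seq column is the authors' mean over the V1 and the S1 library of a replicate. RPKM carry no counting error, so that RNA-seq and Ribo-seq depths were recovered from the smallest steps between low values. With these depths, 16 of the 22 members above 0 in at least 2 of those libraries came out as whole reads at a single length near a GENCODE transcript's (tolerance 0.001 reads). Per-base tables of read starts were not used here, as they were not matched to members. No value column was left unmapped. Values of some single genes are not reported here.

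PARS-seq and Ribo-seq (2 against 2 each) were tested separately with limma 3.58.1 (R 4.3.3, moderated with a mean trend) on log2(RPKM + 1) where the mean over the columns reached 1 RPKM, and p-values were adjusted by the Benjamini-Hochberg method over all genes tested. The p-values measure the spread between 2 replicates, which the labels do not tie to separate cultures. The smallest two-sided p of an exact permutation test of 2 against 2 is 0.333, so none was used. RNA-seq values past 1.5-fold on the (RPKM + 1) scale were counted without a test. Ratios of recovered reads have exact Clopper-Pearson 95% intervals. The fits were tested on simulated data. Members and lists were chosen with earlier results of these data known. Members with a mean of at least 1 RPKM in any assay were named with all values, and from each list up to 3 genes called in PARS-seq with the largest change and an RNA-seq change in the same direction, otherwise its most abundant gene. Alternatives covered the pseudocount, the filter, the scaling, the replicate number as a block and leaving out each replicate. Positions are from GENCODE on GRCh37, and promoters from RefSeq on GRCh38.p14. Calculations used Python 3.11.15, numpy 2.4.6, pandas 2.3.3, scipy 1.17.1 and matplotlib 3.10.9.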

Additional observations from a re-analysis of the deposited data

How the results depend on the processing

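In PARS-seq, the count of 6 members called lower became 2 with a filter at a mean of 5 RPKM, which leaves 2 members to test, and lay between 5 and 7 when each replicate was left out, where the lone remaining column is assumed to vary like the other group. The single member called higher, CYP2R1, became 0 without a filter and with the filter at 5 RPKM, and lay between 0 and 1 when each replicate was left out. Without a filter, SULT1A1 and CYP1B1 also lost their calls (limma adjusted p = 0.0815 and 0.0859), CYP1A1 and CYP4F12, too low for the filter, were called lower (0.0278 and 0.0434), and over all genes 221 were called higher and 325 lower, against 899 and 829 with the filter. Same-numbered columns deviated together (a correlation across genes of 0.658 in PARS-seq and 0.811 in Ribo-seq), but only 2 pairs share a number and the labels tie it to no batch. With the replicate number as a replicate block, 7 members were called lower and 1 higher in PARS-seq, among 2527 genes lower and 3129 higher, and 0 in Ribo-seq, among 58 and 85. CYP1B1-AS1 was called lower with the block (limma adjusted p = 2.94e-05), although its same-numbered columns gave KD to control ratios of 1.10 (replicate 1) and 0.349 (replicate 2). Its log2 fold change was −0.73 without control replicate 1 and −0.64 without KD replicate 1. It was −0.12 without control replicate 2 and −0.22 without KD replicate 2.

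The RNA-seq count of 4 became 2 with the filter at 5 RPKM. With 0.5 RPKM as the minimum, 8 members were expressed in RNA-seq and 7 in Ribo-seq, and with 5 RPKM 2 in PARS-seq, 2 in RNA-seq and 1 in Ribo-seq. The median log2 ratio of members moved to −1.39 and −1.43 in the PARS-seq replicates and −1.02 in RNA-seq with a pseudocount of 0.1. With the filter at 5 RPKM it was −2.40 and −1.97 in PARS-seq, −0.83 in RNA-seq, and −2.0 and 0.26 in Ribo-seq. Median scaling gave −1.04 in PARS-seq replicate 2 and −0.83 in RNA-seq and changed no member's call, but over all genes 750 were then called higher and 912 lower, and 3360 and 3384 were higher or lower without overlap (3715 and 3028 before). In Ribo-seq replicate 2 it moved the median of members from −0.19 to −0.34 and that of all genes from 0.16 to 0.006. Log2 fold changes that did not pass the test turned direction when a replicate was left out, ranging from −0.12 to 0.021 for CYP2U1 in PARS-seq and, in Ribo-seq, from −0.29 to 0.20 for CYP2R1, from −1.89 to 0.15 for CYP2S1 and from −0.76 to 0.16 for CYP2U1. The cause of these shifts was not tested. Low Ribo-seq depth limits all Ribo-seq statements.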

Other observations

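A P450 gene outside the families described, CYP11A1, which makes pregnenolone from cholesterol in steroid-forming tissue, was singled out after its values were seen. It was at 7.26 RPKM in RNA-seq control and 3.03 RPKM in KD, but at 0.828 and 0.682 RPKM in the PARS-seq controls and 0.518 and 0.463 in KD, below the filter. In Ribo-seq it was at 2.75 and 0.928 RPKM in control and at 0.244 and 0.570 in KD. Its level was higher in RNA-seq than in PARS-seq, and its KD values lay below its control values in each assay. With 1 RNA-seq library per condition this difference has no replicate check.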
